A study of Mus musculus with 25 samples.

Results

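The genes described here are the matrix proteases of the mouse lung and their inhibitors. The proteases are the matrix metalloproteinases (Mmp), the ADAM and ADAMTS proteases (Adam and Adamts) and the cathepsins (Cts). The inhibitors are the tissue inhibitors of metalloproteinases (Timp) and the serpins (Serpin). All were chosen by symbol from the annotation of the array, without Serpinh1, a collagen chaperone. This gave 90 probe sets of 68 genes, of 12422 probe sets on the MG-U74Av2 array that are not controls. A probe set is a set of short oligonucleotides meant to read 1 transcript, though some may read similar transcripts too. Of these, 48 probe sets of 41 genes reached the median signal of their array on at least 2 of the 24 arrays and were tested. The remaining 42 probe sets were too dim to test.

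The study followed alveolar loss during caloric restriction in whole lung tissue of C57BL/6 mice. Food was cut by 2/3, and lungs were taken 2, 4, 12, 24, 48, 72 and 96 h later, with 2 arrays at each time (labelled CR). The fed groups comprise the hours 2, 4 and 12, each with 2 arrays, and the hour 0 with 4 arrays, of which 2 carry the number 1 and 2 the number 2. The descriptions of the fed arrays call the mice fed but also carry the wording on the cut diet, and the group was taken from the titles. Age, sex and the number of animals behind an array were not given. The arrays of a group carry the letters a and b, and nothing says that these are separate animals, so the spread behind the p-values may be technical only. In whole lung, fewer cells of a type and less RNA per cell cannot be told apart.

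Matrix metalloproteinases and ADAMTS proteases cut collagens, elastin and proteoglycans, while ADAM proteases mostly release proteins from the cell surface. Timp proteins block these metalloproteinases. Cathepsins work mainly in lysosomes, and some are secreted by macrophages and degrade elastin, whereas serpins trap serine proteases such as neutrophil elastase and granzymes. In the lung the balance of proteases and inhibitors sets the integrity of the alveolar wall: mice lacking Mmp12, the macrophage elastase, are protected from smoke-induced emphysema, and mice lacking Timp3, a matrix-bound inhibitor of metalloproteinases, develop enlarged airspaces.

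Timp3, Mmp12 and Adam19 are the markers given with this gene set. The RefSeq promoter window of each is shown here (build GRCm38.p6, 250 bases before to 50 bases after the start of the transcript). Capitals mark a motif match.
Timp3 promoter, chr10:86300162-86300461, + strand: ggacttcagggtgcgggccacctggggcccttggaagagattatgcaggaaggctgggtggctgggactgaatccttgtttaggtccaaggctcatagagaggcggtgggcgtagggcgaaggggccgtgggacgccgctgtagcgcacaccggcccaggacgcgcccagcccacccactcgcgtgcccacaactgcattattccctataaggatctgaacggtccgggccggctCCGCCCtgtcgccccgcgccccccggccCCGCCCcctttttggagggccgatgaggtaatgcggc
Mmp12 promoter, chr9:7344147-7344446, + strand: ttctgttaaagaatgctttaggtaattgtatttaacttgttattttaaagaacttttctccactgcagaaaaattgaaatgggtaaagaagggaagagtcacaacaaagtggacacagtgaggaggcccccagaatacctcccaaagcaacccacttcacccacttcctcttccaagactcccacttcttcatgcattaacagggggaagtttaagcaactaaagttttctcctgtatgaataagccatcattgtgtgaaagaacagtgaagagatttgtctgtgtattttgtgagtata
Adam19 promoter, chr11:46054252-46054551, + strand: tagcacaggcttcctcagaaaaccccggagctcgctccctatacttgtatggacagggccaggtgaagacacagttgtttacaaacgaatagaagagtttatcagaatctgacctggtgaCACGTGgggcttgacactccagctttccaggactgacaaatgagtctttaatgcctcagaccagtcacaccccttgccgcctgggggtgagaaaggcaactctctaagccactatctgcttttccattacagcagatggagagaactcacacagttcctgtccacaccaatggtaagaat
The windows differ in base composition. The Timp3 window is 67% G and C and holds 24 CG pairs, the Mmp12 window is 38.7% G and C and holds 0 CG pairs, and the Adam19 window is 49.3% G and C with 5 CG pairs. The median over all 32544 windows of the table is 53% and 7 CG pairs. Both capital stretches of Timp3 are a GC box (GGGCGG on the opposite strand), at positions -15 and 14 counted from the first transcribed base as 1. The capitals of Adam19 are an E-box, CACGTG on either strand, at position -130. A window was listed for 47 of the 68 member genes. The GC box occurs on either strand in 35.9% of all windows and in 21 of the 47, and the E-box in 7.17% and in 5. The TATA element, searched as TATAAA, occurs in 13.6% of all windows and in 11 of the 47, and the AP-1 site, searched as TGANTCA, in 7.79% and in 8. The matches shown do not overlap each other. No match in the Mmp12 window says only that these letters are not in it.

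The 24 arrays needed little scaling (factors 0.92 to 1.05), but they fall into groups with different ceilings. The highest signal was 74440 to 99040 on 12 arrays (CR 2, 12, 24 and 48 h, fed 12 h and fed 0 h number 1) and 31600 to 54310 on the other 12 (CR 4, 72 and 96 h, fed 2 and 4 h and fed 0 h number 2). The 6 lung epithelial markers measured, among them the surfactant genes Sftpb and Sftpc, summed to between 95480 and 235300 on every array, so the tissue label holds. Between fed 0 h number 1 and number 2, 39.9% of all 7440 tested probe sets and 14 of the 48 member probe sets (29.2%) differed with an adjusted p under 0.05. Results against fed 0 h are therefore given against each number as well for the member probe sets called.

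By family, 5 of 16 Mmp probe sets passed the filter, 12 of 20 Adam, 0 of 1 Adamts, 3 of 6 Timp, 16 of 20 cathepsin and 12 of 27 serpin probe sets. The kept metalloproteinases were Mmp3, Mmp9, Mmp11, Mmp12 and Mmp14. Both probe sets of Mmp2, a gelatinase, and those of Mmp7, Mmp8, Mmp10, Mmp13, Mmp16, Mmp17 and Mmp24 never reached an array's median. Neither did Adamts1, Ctsg, Ctsw and Serpinb1a. Of the 42 probe sets left out, 41 reached the median on 0 arrays and 1 did so on 1 array, and 5 of those kept did so on exactly 2 arrays. The filter therefore says that these transcripts gave little signal on this array, not that they were absent.

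Late in restriction, 12 of the 48 member probe sets changed against fed 0 h. Timp3, Adam19, Adam9, Adam15, Ctse (2 probe sets), Ctsb (2 probe sets), Serping1 and Serpina3n were higher, and Mmp12 and Serpinb9 were lower. The comparison set the mean of the CR groups at 24, 48, 72 and 96 h (8 arrays) against fed 0 h (4 arrays). By the labelled hours, fed 0 h has the same clock time as these CR groups, while fed 2, 4 and 12 h do not. The count is 25% of the members, against 18.1% of all probe sets. Higher calls made up 20.8% of the members against 9.85% of all probe sets, and lower calls 4.17% against 8.24%. The median log2 difference of the 48 was 0.11, against 0 over all probe sets. With 1 probe set for each gene, the brightest, 7 of 41 genes were higher and 2 lower. With a and b averaged and hours pooled (late CR, early CR, fed 2, 4 and 12 h), the count was 0 of 48. It was 1 with array weights and 2 when only the arrays compared entered the fit. It was 5 without either array of fed 0 h number 1, and 7 without CR 96 h 1b. These counts stand without the share of all probe sets under each setting, so they describe the settings only. Under 40 alternative settings, the call held in 39 for Timp3 and 38 for Serpinb9, but in 19 for Adam15 and 13 for Adam9. Of these settings, 24 only left out 1 array each and still took a and b as replicates. With a and b averaged and hours pooled, none of these calls held.

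**Figure D1:**
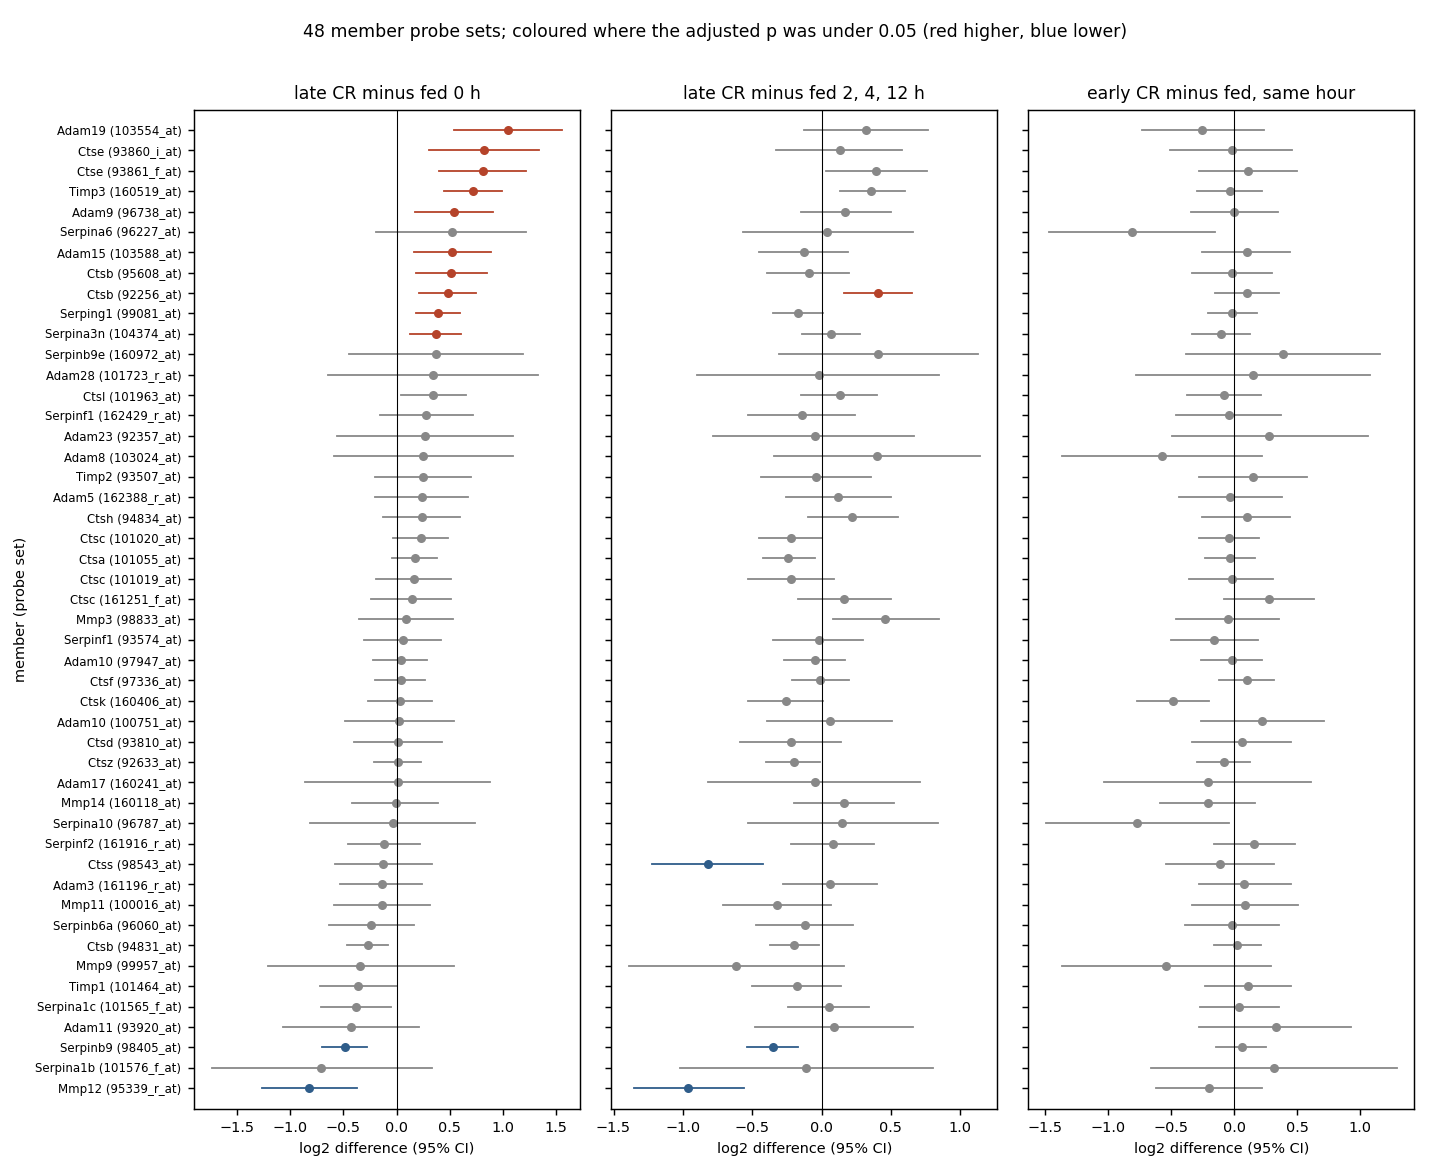
Log2 difference (horizontal axis, points, with the 95% confidence interval as lines) of each of the 48 tested member probe sets in late CR minus fed 0 h (left), late CR minus fed 2, 4 and 12 h (middle) and early CR minus fed of the same hour (right). Colour marks an adjusted p under 0.05, which 12 probe sets reached on the left, 4 in the middle and 0 on the right.

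Among the inhibitors of metalloproteinases, Timp3 changed most clearly. It had 9162 (lowest), 10430 (median) and 11720 (highest) scaled signal in late CR, against 4820, 5504, 7181 and 7793 in fed 0 h lungs. The groups did not overlap, which held in the same direction for 3.05% of all probe sets. Timp3 was 1.65-fold higher in late CR than in fed 0 h lungs (95% confidence interval 1.37 to 1.99, adjusted p = 0.00118), 1.99-fold higher than fed 0 h number 1 (adjusted p = 1.72e-06) and 1.37-fold higher than number 2 (adjusted p = 0.0239). Of 9 endothelial markers, 4 were higher and 1 lower in the same comparison, and their summed signal was 32110 to 42190 in late CR and 27950 to 38640 in fed 0 h lungs. Their part in the Timp3 result was not tested.

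The other 2 tissue inhibitors did not pass the test. Timp1, a secreted inhibitor induced in injury, ran from a group mean of 1071 ± 237 in CR 24 h to 2553 ± 310 in fed 2 h (SD, n = 2 each). Its log2 difference in late CR against fed 0 h was -0.36 (95% interval -0.72 to 0.00, adjusted p = 0.146). Timp2, which also takes part in activating pro-Mmp2, was highest in CR 12 h, at 1661 ± 61.4, and lowest in fed 4 h, at 830.7 ± 372 (SD, n = 2 each), with a log2 difference of 0.25 (-0.20 to 0.70, adjusted p = 0.429).

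The level of Timp3 differed between hours within CR, while no difference between the diets passed the test at matched hours. It was 6381 and 5807 in CR 2 h, 7440 and 6566 in CR 4 h, and 10670 and 11460 in CR 12 h. In fed lungs it was 7639 and 6580 at 2 h, 7406 and 6832 at 4 h, and 11530 and 8713 at 12 h. All arrays at 12 h, CR or fed, thus lay above all arrays at 2 and 4 h, and the late CR arrays lay in the range of the 12 h arrays or close to it. Timp3 was 1.70-fold higher in CR 12 h than in CR 2 and 4 h (adjusted p = 0.0258). Fed 12 h against fed 2 and 4 h gave a log2 difference of 0.50, which did not pass (adjusted p = 0.251). The fed 12 h arrays are of the high ceiling and the fed 2 and 4 h arrays of the low one, so hour and ceiling cannot be told apart in fed lungs. At the matched hours 2, 4 and 12, CR and fed lungs differed by -0.03 on the log2 scale (adjusted p = 0.999). Late CR against fed 12 h, which has another clock time by the labelled hours, gave a log2 difference of 0.03 (adjusted p = 0.96). Against fed 2, 4 and 12 h together Timp3 was not called either (1.29-fold, 1.09 to 1.52, adjusted p = 0.0637).

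**Figure D2:**
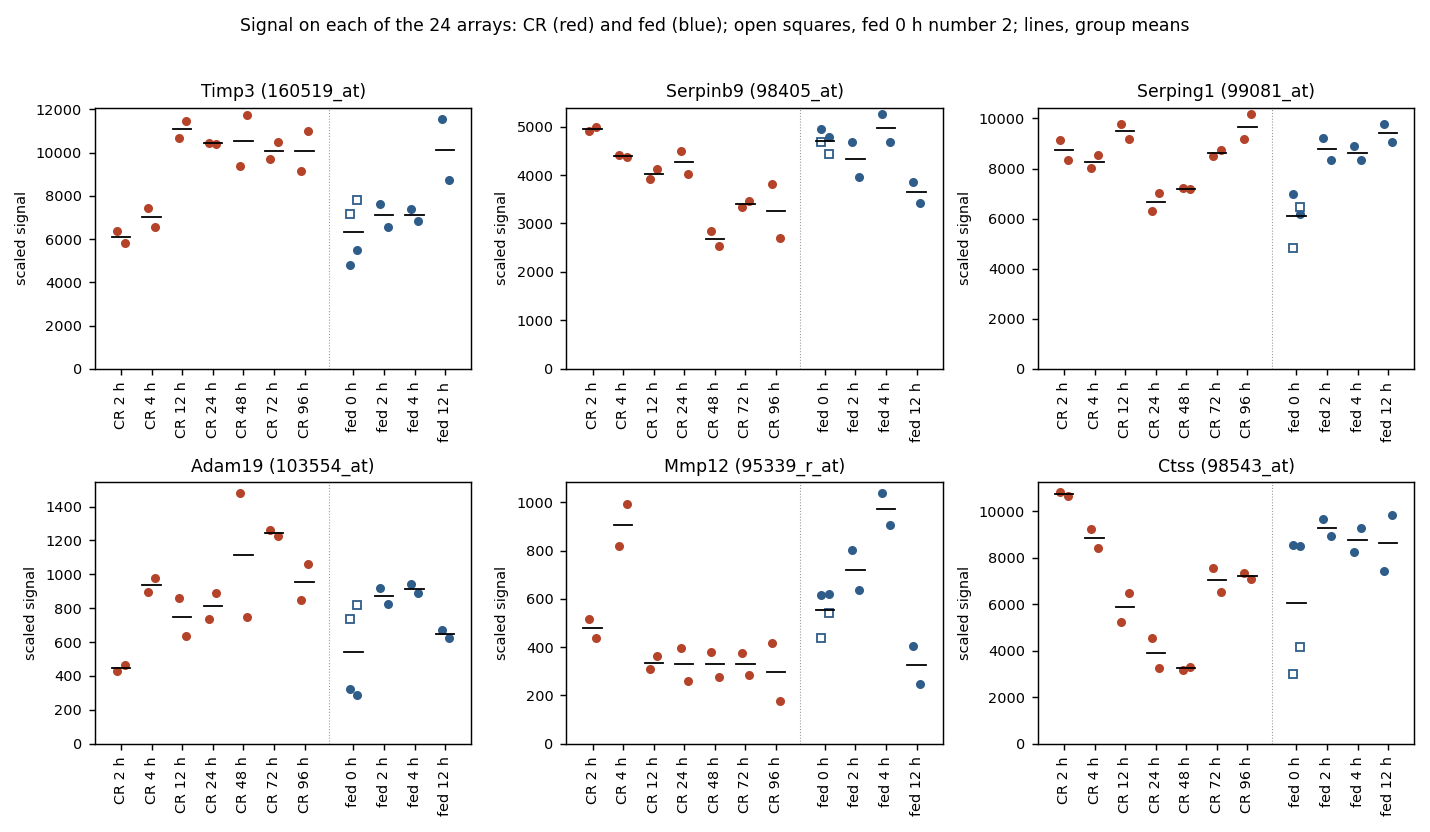
Scaled signal (vertical axis, linear from 0) on each of the 24 arrays for Timp3, Serpinb9, Serping1, Adam19, Mmp12 and Ctss, with CR groups by hour in red on the left, fed groups in blue on the right, and the mean of each group as a line. Timp3 was 8713 or more on every array of CR 12 to 96 h and of fed 12 h and 7793 or less on all others, while Mmp12 was 418.5 or less on those arrays and 438.5 or more on the others.

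Among the metalloproteinases only Mmp12 was called against fed 0 h or fed 2, 4 and 12 h. The values are those of the brighter of its probe sets, whose name ends in r_at, the manufacturer's mark for a set made by relaxed rules. Mmp12 had 175.5 (lowest), 331.2 (median) and 418.5 (highest) scaled signal in late CR, against 617.4, 621.1, 438.5 and 541.2 in fed 0 h lungs. The groups did not overlap, which held in this direction for 2.22% of all probe sets. Mmp12 was 1.77-fold lower in late CR than in fed 0 h lungs (1.30 to 2.41, adjusted p = 0.014). It was 1.99-fold lower than number 1 (adjusted p = 0.00404) and 1.57-fold lower than number 2 (adjusted p = 0.15).

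The Mmp12 values at 12 h lay below those at 2 and 4 h in both diets. It was 515.8 and 438.8 in CR 2 h, 820.5 and 993.1 in CR 4 h, and 308.1 and 363.6 in CR 12 h. In fed lungs it was 803.6 and 636.6 at 2 h, 1039 and 904.5 at 4 h, and 402.8 and 246.5 at 12 h. Fed 12 h lungs lay below all arrays at 2 and 4 h and within the late CR range. Fed 12 h was 2.64-fold lower than fed 2 and 4 h (adjusted p = 0.0412), in a comparison that called 0.47% of all probe sets and in which, as for Timp3, hour and ceiling cannot be told apart. CR 12 h against CR 2 and 4 h gave -0.97 on the log2 scale (adjusted p = 0.0951). Late CR differed from fed 12 h by -0.02 (adjusted p = 0.985) and was 2.68-fold lower than fed 2 and 4 h (adjusted p = 0.000312), where 5 of the 48 members and 6.99% of all probe sets were called. A second Mmp12 probe set, 95338_s_at, never exceeded 241.1 and was not tested. Its values in fed lungs did not run the same way: they were 184 and 184.8 at 12 h, against 98.83 and 136.6 at 2 h and 116.3 and 199.3 at 4 h.

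The other kept metalloproteinases passed in neither late comparison. Mmp14, the membrane-type collagenase that activates pro-Mmp2, ran from 1515 ± 117 in CR 2 h to 2300 ± 315 in CR 72 h (SD, n = 2 each). Its log2 difference in late CR against fed 0 h was -0.01 (-0.42 to 0.39, adjusted p = 0.971), but it was 1.42-fold higher than number 1 (adjusted p = 0.00837) and 1.45-fold lower than number 2 (adjusted p = 0.034), and the 2 numbers themselves differed by -1.04 (number 1 minus number 2, adjusted p = 0.000268). Mmp3, stromelysin 1, ran from 740.1 ± 254 in CR 12 h to 1557 ± 13.8 in CR 24 h. Mmp11, stromelysin 3, ran from 182.3 ± 4.44 in CR 72 h to 412.3 ± 43.3 in CR 4 h. Mmp9, the gelatinase of neutrophils and macrophages, ran from 38.51 ± 9.67 in CR 24 h, below the floor, to 343.5 ± 31.3 in fed 2 h (SD, n = 2 each). It was at the floor on 5 of 24 arrays.

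Of the ADAM proteases, Adam19, a metalloprotease that releases neuregulin and is needed for heart development in the mouse, had the largest fold change of the 48 members in late CR against fed 0 h. It had 738.6 (lowest), 977.2 (median) and 1482 (highest) scaled signal in late CR, against 320, 284.9, 733.3 and 818 in fed 0 h lungs. The 2 low fed arrays were both of number 1, and those of number 2 overlapped with late CR. Adam19 was 2.07-fold higher in late CR than in fed 0 h lungs (1.45 to 2.96, adjusted p = 0.00785). It was 3.32-fold higher than number 1 (adjusted p = 5e-07) but 1.29-fold higher than number 2 (adjusted p = 0.254), and 1.25-fold higher than fed 2, 4 and 12 h (0.914 to 1.71, adjusted p = 0.416). Early in the course it was 430.6 and 461.9 in CR 2 h, 894.9 and 980 in CR 4 h, and 857.4 and 632.8 in CR 12 h, against 920.8 and 824.2 in fed 2 h, 939.7 and 891.3 in fed 4 h, and 669.9 and 623.2 in fed 12 h.

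Adam9 and Adam15, which bind integrins through their disintegrin domains, were 1.45-fold (1.12 to 1.87, adjusted p = 0.0421) and 1.44-fold (1.12 to 1.85, adjusted p = 0.0427) higher in late CR than in fed 0 h lungs. Adam9 had 827.8, 1108 and 1500 (lowest, median and highest) in late CR, against 500.7, 641.2, 1111 and 924 in fed 0 h lungs. Adam15 had 419.6, 504.8 and 680.3 in late CR, against 292.7, 345.3, 338.2 and 503.4 in fed 0 h lungs. In both the groups overlapped through number 2. Adam9 was 1.94-fold higher than number 1 (adjusted p = 6.8e-05) but differed from number 2 by 0.12 on the log2 scale (adjusted p = 0.72). Adam15 was 1.64-fold higher than number 1 (adjusted p = 0.00809) and 1.26-fold higher than number 2 (adjusted p = 0.363).

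The sheddases Adam10 and Adam17, which release Notch and tumour necrosis factor from the cell surface, did not pass. The brighter Adam10 probe set was highest in CR 4 h, at 1123 ± 41.2, and lowest in fed 12 h, at 766.2 ± 138, and Adam17 ran from 111 ± 78 in fed 4 h to 343 ± 114 in fed 12 h (SD, n = 2 each). Their log2 differences in late CR against fed 0 h were 0.04 (-0.22 to 0.29, adjusted p = 0.847) and 0.01 (-0.86 to 0.88, adjusted p = 0.989). Adam8, expressed by leukocytes, ran from 55.59 ± 6.49 in CR 12 h to 338.7 ± 47.7 in CR 24 h, and Adam28 from 58.94 ± 20.3 in fed 4 h to 281.8 ± 93.5 in fed 12 h. Both were at the floor on several arrays (5 and 10 of 24). Adam11 and Adam23, which lack protease activity, ran from 136.8 ± 16.1 in fed 2 h to 299.4 ± 139 in fed 0 h (n = 4) and from 120.7 ± 92.1 in CR 48 h to 357.4 ± 33.4 in CR 2 h.

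Adam3 and Adam5 are known as sperm surface proteins, and their probe sets disagreed. One probe set of Adam3 was above the median on all 24 arrays (437.1 ± 8.04 in CR 2 h to 699.2 ± 120 in CR 12 h), and the other was at the floor on 23. For Adam5 the means were 1455 ± 308 in CR 4 h to 1858 ± 25.6 in CR 48 h, and the other probe set was at the floor on 22 arrays. The bright probe set is in each case 1 whose name ends in r_at, the manufacturer's mark for a set made by relaxed rules. Neither changed in any of the 4 mean comparisons.

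Among the cathepsins, 4 probe sets of Ctse and Ctsb were higher in late CR than in fed 0 h lungs. Ctse, an aspartic protease of endosomes, had 529.6, 875.9 and 1045 (lowest, median and highest) in late CR on its brighter probe set, against 368.6, 384.1, 631.9 and 511.7 in fed 0 h lungs. The groups overlapped, again through number 2. The 2 kept Ctse probe sets, 93861_f_at and 93860_i_at, were 1.76-fold (1.32 to 2.34, adjusted p = 0.00947) and 1.77-fold (1.23 to 2.53, adjusted p = 0.0284) higher. Another Ctse probe set, 104696_at, never reached an array's median and was not tested. It did not run the same way, at 57.56 to 205.5 in late CR and 138.2 to 186.1 in fed 0 h lungs. Both kept probe sets passed against number 1 (2.16-fold, adjusted p = 0.000384, and 2.56-fold, adjusted p = 0.00014) and neither against number 2 (1.43-fold, adjusted p = 0.177, and 1.22-fold, adjusted p = 0.53).

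Ctsb, a lysosomal cysteine protease, gave different results on its 3 kept probe sets. Probe set 92256_at had 617.5, 731.5 and 820.9 in late CR (lowest, median and highest), against 434.9, 481.9, 592.8 and 620.9 in fed 0 h lungs and 492.5, 561.7 and 609.6 in fed 2, 4 and 12 h. Late CR overlapped with fed 0 h but not with fed 2, 4 and 12 h, which held in this direction for 1.98% of all probe sets. It was 1.40-fold higher than fed 0 h (1.16 to 1.69, adjusted p = 0.0168) and 1.32-fold higher than fed 2, 4 and 12 h (1.12 to 1.56, adjusted p = 0.0402). Probe set 95608_at was 1.43-fold higher than fed 0 h (1.13 to 1.80, adjusted p = 0.0322). Both were higher than number 1 (1.61-fold, adjusted p = 0.000698, and 1.60-fold, adjusted p = 0.0063), and neither passed against number 2 (1.21-fold, adjusted p = 0.275, and 1.27-fold, adjusted p = 0.3). The brightest, 94831_at, averaged 6062 ± 431 in late CR (SD, n = 8) and 7374 ± 1040 in fed 0 h lungs (SD, n = 4), a log2 difference of -0.27 (-0.47 to -0.08, adjusted p = 0.0508). A direction for Ctsb as a gene thus cannot be given.

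Cathepsin S, Ctss, an elastin-degrading protease of macrophages and other antigen-presenting cells, was lower in late CR when set against fed 2, 4 and 12 h. It had 4564 and 3261 in CR 24 h, 3174 and 3296 in CR 48 h, 7551 and 6510 in CR 72 h, and 7332 and 7094 in CR 96 h. In fed lungs at 2, 4 and 12 h it had 7417 (lowest), 9093 (median) and 9837 (highest). Only 1 late array reached the fed range, and the arrays at 24 and 48 h lay far below it. Ctss was 1.77-fold lower (1.34 to 2.33, adjusted p = 0.0126).

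Against fed 0 h the sign of the Ctss difference depended on the number. Fed 0 h lungs had 8547 and 8511 in number 1 and 2984 and 4147 in number 2. Late CR was 1.70-fold lower than number 1 (adjusted p = 0.000154) and 1.42-fold higher than number 2 (adjusted p = 0.0294), and against all 4 arrays the log2 difference was -0.13 (-0.58 to 0.33, adjusted p = 0.696). Among arrays of like ceiling, CR 24 and 48 h were below number 1 by -1.27 on the log2 scale (adjusted p = 2.39e-06), while CR 72 and 96 h were above number 2 by 1.02 (adjusted p = 0.000174).

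Macrophage markers were low where Ctss was lowest, but did not follow it in every group. The summed signal of 15 markers other than Ctss was 62280 to 62680 in CR 2 h, 49900 to 52210 in CR 4 h, 36990 to 38610 in CR 12 h, 33880 to 37380 in CR 24 h, 34190 to 35880 in CR 48 h, 59760 to 61150 in CR 72 h and 59470 to 63700 in CR 96 h. In fed lungs it was 60370 to 62920 in fed 0 h number 1, 30810 to 39720 in number 2, 50970 to 62390 at 2 h, 56740 to 60410 at 4 h and 41730 to 53100 at 12 h. In CR 72 and 96 h the sum reached that of fed 2 and 4 h, while Ctss, at 6510 to 7551, lay below its 8249 to 9672 there. Of the 15 markers, 0 were called in late CR against fed 0 h and 2, Cd68 and Itgax, were lower against fed 2, 4 and 12 h. A further 3 of the 18 on the array did not pass the filter. Their part in the Ctss and Mmp12 results was not tested.

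**Figure D3:**
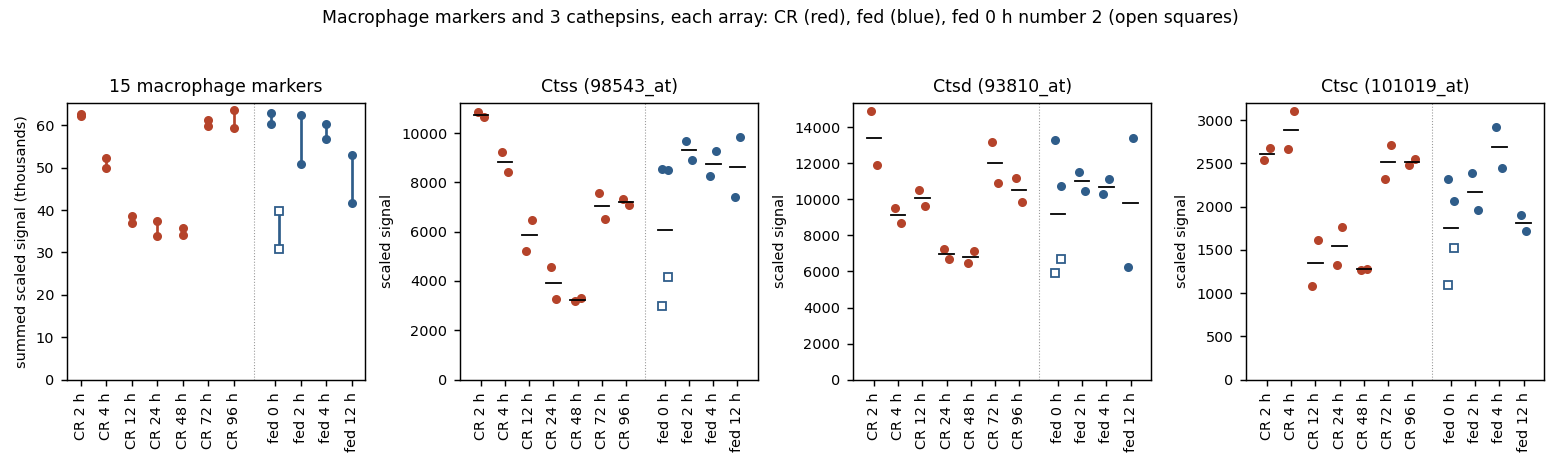
Summed scaled signal of 15 macrophage markers (left, axis in units of 1000, lines join the 2 arrays of a group or number) and scaled signal of Ctss, Ctsd and Ctsc (right panels, lines are group means) on each array, by CR hour (red) and fed hour (blue, open squares for fed 0 h number 2). All were low in CR 24 and 48 h and in fed 0 h number 2, and higher in CR 2, 72 and 96 h.

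Group means of Ctsd and Ctsc were also lowest in CR 48 h. Ctsd, the main aspartic protease of lysosomes, ran from 6787 ± 469 in CR 48 h to 13410 ± 2140 in CR 2 h, and Ctsc, which activates granzymes and neutrophil serine proteases, from 1276 ± 8.04 in CR 48 h to 2886 ± 306 in CR 4 h on its brightest probe set (SD, n = 2 each). Ctsh and Ctsl, cysteine proteases, were 1.70-fold (adjusted p = 7.47e-05) and 1.59-fold (adjusted p = 0.00401) higher in late CR than in fed 0 h number 2. Against all fed 0 h arrays neither was called (log2 differences of 0.24, adjusted p = 0.352, and 0.34, adjusted p = 0.105). In CR 24 h neither lay below the fed 2, 4 and 12 h arrays. Ctsh had 6155 and 5807 there, above the 4804 to 5740 of fed 2 and 4 h but between the 5541 and 6582 of fed 12 h. Ctsl had 4496 and 4248, above the 2814 to 4190 of fed 2, 4 and 12 h. In CR 48 h Ctsh had 5140 and 5581, and Ctsl 2798 and 3414. Fed 0 h number 1 had 8329 and 7720 for Ctsh and 3964 and 3787 for Ctsl. Within fed 0 h, Ctss, Ctsh, Ctsd, Ctsc (1 of 3 probe sets), Ctsl, Ctsb (94831_at) and Serpinb6a were higher in number 1 than in number 2, and Adam8, Adam19, Mmp14, Timp3, Ctse (1 of 2 kept probe sets), Adam9 and Adam10 (1 of 2) were lower. Ctsc (1 of 3 probe sets, adjusted p = 0.0219) and Ctsz, a carboxypeptidase (adjusted p = 0.00901), were also lower in CR 12 h than in CR 2 and 4 h, by 2.07-fold and 1.69-fold. That comparison called 2.96% of all probe sets and 3 of 48 members.

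Serpins changed in both directions. Serpinb9, the intracellular inhibitor of granzyme B that protects cytotoxic lymphocytes and their neighbours, had 4493 and 4028 in CR 24 h, 2835 and 2539 in CR 48 h, 3350 and 3471 in CR 72 h, and 3807 and 2700 in CR 96 h, against 4952, 4774, 4684 and 4429 in fed 0 h lungs. Only the higher CR 24 h array reached the fed 0 h range. Serpinb9 was 1.41-fold lower than fed 0 h (1.22 to 1.63, adjusted p = 0.00324), and lower than number 1 and number 2 taken alone (log2 differences of -0.54, adjusted p = 0.000698, and -0.45, adjusted p = 0.0214). It was also 1.28-fold lower than fed 2, 4 and 12 h (1.12 to 1.45, adjusted p = 0.0206). Against fed 12 h, at 3865 and 3420, the difference was -0.12 (adjusted p = 0.736).

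Of 4 markers of T and natural killer cells measured, 3 (Gzma, Gzmb and Klrd1) were called lower in late CR than in fed 0 h lungs. The summed signal of the 4 was 618 to 1263 in late CR (mean 840.5), against 1903 to 1909 in fed 0 h number 1 and 768.1 to 1006 in number 2, so it overlapped with number 2 but not with number 1. Another 5 on the array did not pass the filter. Of 6 B cell markers, 4 were lower, with sums of 1995 to 3559 in late CR, against 8753 to 9812 in fed 0 h number 1 and 2578 to 4520 in number 2. Their part in the Serpinb9 result was not tested.

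Serping1, the C1 inhibitor of the complement and contact systems, had 6302, 7845 and 10160 (lowest, median and highest) in late CR, against 6972, 6181, 4847 and 6469 in fed 0 h lungs. The groups overlapped. It was 1.31-fold higher in late CR than in fed 0 h lungs (1.14 to 1.51, adjusted p = 0.0119), and also higher than number 1 (1.21-fold, adjusted p = 0.0373) and number 2 (1.42-fold, adjusted p = 0.00488). Fed lungs at 2, 4 and 12 h, with 8351 (lowest), 8994 (median) and 9776 (highest), lay above all 4 fed 0 h arrays. Serping1 was the 1 member of 48 called in fed 2, 4 and 12 h against fed 0 h (1.47-fold, 1.27 to 1.71, adjusted p = 0.00958), a comparison that called 1.85% of all probe sets. Late CR against fed 2, 4 and 12 h was not called for it.

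Serpina3n, an acute-phase inhibitor of serine proteases, had 2110, 2979 and 4097 (lowest, median and highest) in late CR, against 2586, 2306, 2482 and 2091 in fed 0 h lungs. It was highest in CR 96 h, at 4097 and 3950, and the groups overlapped. It was 1.29-fold higher (1.09 to 1.52, adjusted p = 0.0336), but passed against neither number alone (1.24-fold, adjusted p = 0.0603, for number 1 and 1.33-fold, adjusted p = 0.0667, for number 2). Against fed 12 h, at 2039 and 1883, late CR was 1.55-fold higher (adjusted p = 0.0324), the only call among the 48 members in a comparison that called 1.79% of all probe sets. Fed 12 h was itself 1.80-fold lower than fed 2 and 4 h (adjusted p = 0.0171), where hour and ceiling again cannot be told apart. Only 2 of 12 hepatocyte markers on the array passed the filter, with sums of 23100 to 38630 in late CR and 35360 to 42000 in fed 0 h lungs. Of these 2, 1 was called higher and 1 lower in late CR than in fed 0 h lungs.

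The remaining serpins did not pass in late CR against fed 0 h. Serpina1c, an alpha-1 antitrypsin that inhibits elastase, had a log2 difference of -0.38 (-0.71 to -0.05, adjusted p = 0.097) and Serpina1b, a near-identical paralog whose probes may read it too, of -0.71 (-1.74 to 0.33, adjusted p = 0.322). Serpinb6a ran from 3682 ± 44.5 in CR 48 h (n = 2) to 5149 ± 2070 in fed 0 h (n = 4). Serpina6, the corticosteroid-binding globulin, ran from 138.9 ± 73.3 in CR 2 h to 356.5 ± 53.9 in CR 96 h. Its late CR level was 2.03-fold that of number 1 (adjusted p = 0.0366), of which 1 array was at 24.51, and 1.01-fold that of number 2 (adjusted p = 0.993). Serpinf1, an antiangiogenic serpin without inhibitory action, ran from 262 ± 68.3 in CR 72 h to 586.3 ± 133 in CR 24 h on 1 of its 2 kept probe sets (SD, n = 2 each).

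Set against fed 2, 4 and 12 h, 4 of the 48 members changed in late CR. By the labelled hours these fed groups have other clock times than late CR, whereas fed 0 h has the same. The count was 16 with the ceiling as a block, 8 with array weights and 1 against fed 12 h alone (1.79% of all probe sets). It was 0 with a and b averaged and hours pooled. Counts without a share of all probe sets describe the setting and not the members in particular. Ctsb (92256_at) was higher, and Mmp12, Ctss and Serpinb9 were lower. This is 8.33% of the members, against 6.34% of all probe sets (higher calls 2.08% against 3.62%, lower calls 6.25% against 2.73%), and the median log2 difference was -0.02 for the members and 0.02 for all. Of the 12 probe sets called against fed 0 h, 9 kept their direction and 3 were called. Ctsb (95608_at), Adam15 and Serping1 turned. On no member did late CR separate from all 10 fed arrays, against 0.914% of all probe sets that lay wholly above and 0.255% wholly below.

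**Figure D4:**
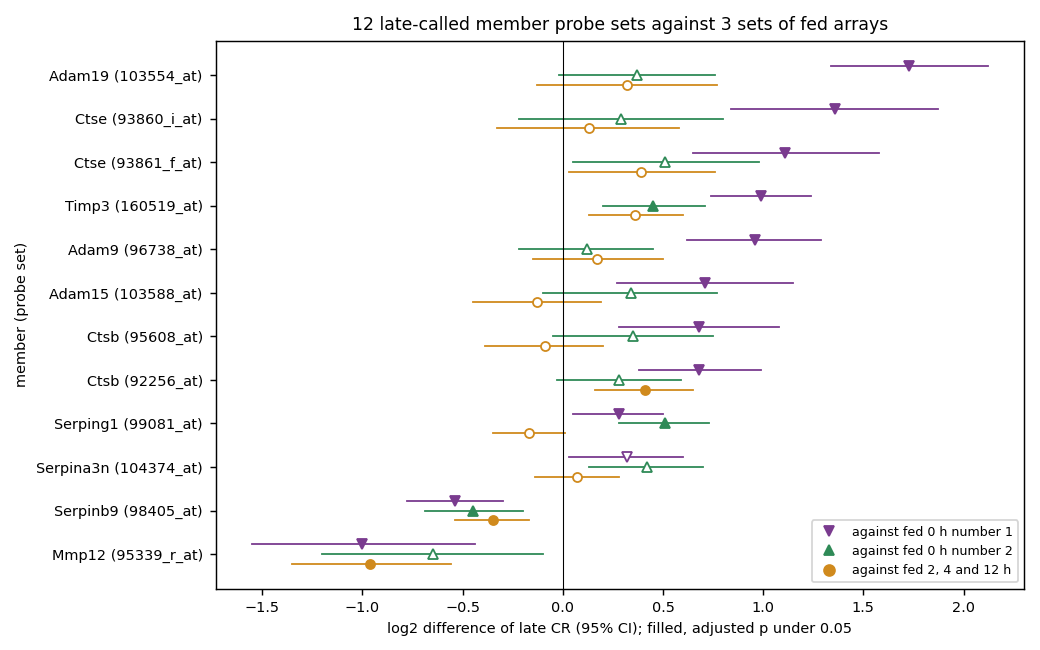
Log2 difference of late CR (horizontal axis, with 95% confidence interval) for the 12 probe sets called against fed 0 h, set against fed 0 h number 1, fed 0 h number 2 and fed 2, 4 and 12 h. Filled symbols mark an adjusted p under 0.05, which 11 reached against number 1 and 3 each against the other sets.

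Against number 1 alone 21 of the 48 members were called (49.4% of all probe sets), and against number 2 alone 8 (7.76%). All 12 probe sets called against fed 0 h kept their direction against each number, and Timp3, Serpinb9 and Serping1 passed against both. These 3 are 25% of the 12, against 20% of all probe sets called against fed 0 h. Among arrays of high ceiling, CR 24 and 48 h against number 1 called 20 members (46% of all probe sets), 9 of them among the 12. Among arrays of low ceiling, CR 72 and 96 h against number 2 called 12 members (10.7% of all probe sets), 5 of them among the 12.

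In the first 12 h no member passed the test of the diet. CR at 2, 4 and 12 h was set against fed lungs of the same hour. With limma 0 of 48 members and 0.0269% of all probe sets were called, and at an unadjusted p under 0.05 there were 3 members (6.25%) and 3.28% of all probe sets. The 3 were Ctsk, the collagen-degrading cathepsin of osteoclasts (log2 difference -0.48), Serpina6 (-0.81) and Serpina10, an inhibitor of coagulation (-0.77), each with an adjusted p of 0.999. The log2 differences of Timp3, Mmp12 and Adam19 were -0.03 (-0.29 to 0.22), -0.20 (-0.62 to 0.22) and -0.25 (-0.73 to 0.24). The CR 2 h arrays are of the high ceiling and the fed 2 h arrays of the low one.

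The late and the early difference were also set against each other. Timp3 was 0.76 higher on the log2 scale late than early (0.39 to 1.13, adjusted p = 0.035) and Serpinb9 0.55 lower (log2 difference -0.55, -0.84 to -0.26, adjusted p = 0.0451). These were 2 of the 48 members, against 2% of all probe sets. For Adam19 the difference was 1.30 (0.59 to 2.00, adjusted p = 0.0523) and for Mmp12 -0.62 (adjusted p = 0.235). Leaving out any 1 of 16 of the 24 arrays left 0 members called. The late difference used fed 0 h, of the same clock time by the labelled hours, and the early one fed lungs of the same hour.

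Between the late CR times themselves, 0 of 48 members were called by limma's F test, against 0.578% of all probe sets, and 13 members (27.1%) had an unadjusted p under 0.05, against 10.3% of all. The smallest p-values belonged to Ctsb (95608_at, adjusted p = 0.057), Timp1 (adjusted p = 0.12), Ctsc (adjusted p = 0.156) and Ctsa, the protective protein of lysosomal galactosidase (adjusted p = 0.168). Ctsb (95608_at) had 331.8 and 519.6 in CR 24 h, 482.2 and 396.9 in CR 48 h, 811.9 and 709.8 in CR 72 h, and 924.6 and 966.4 in CR 96 h. Timp1 had 903.7 and 1239 in CR 24 h, 2405 and 1672 in CR 48 h, 2455 and 2051 in CR 72 h, and 2020 and 2719 in CR 96 h. It was thus low in CR 24 h only. The CR 72 and 96 h arrays are of the low ceiling and the CR 24 and 48 h arrays of the high one. Time and ceiling cannot be told apart where CR 24 and 48 h differ from CR 72 and 96 h, as for Ctsb (95608_at). A difference of the CR effect between the 3 early hours was called by limma for 0 of 48 members and 0% of all probe sets. An unadjusted p under 0.05 was found for 3 members (6.25%), against 4.81% of all probe sets. The smallest p-values were those of Serpina3n (adjusted p = 0.772), Ctsb (94831_at), Adam23 and Ctsb (92256_at), each of these with an adjusted p of 0.946.

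Genes of the same pathway that are no members were read from 3 lists. Of 30 other proteases measured, 5 were higher and 2 lower in late CR than in fed 0 h lungs (23.3%, against 18.1% of all probe sets). Against fed 2, 4 and 12 h 2 were higher and 2 lower (13.3%, against 6.34%). Ace, angiotensin-converting enzyme of the endothelium, was 2.07-fold higher (adjusted p = 0.0016) and Plat, tissue plasminogen activator, 1.78-fold higher (adjusted p = 0.00207). Capn2, Ece1 and Furin, which activates several metalloproteinases, were 1.61-fold, 1.87-fold and 1.56-fold higher, and Gzma and Gzmb, the granzymes, were 2.85-fold and 1.73-fold lower. Of 11 other inhibitors, 3 were higher and 2 lower (45.5%), and against fed 2, 4 and 12 h 1 was higher and 0 lower (9.09%). Reck, a membrane-anchored inhibitor of metalloproteinases, was 1.83-fold higher (adjusted p = 0.0192), Itih5 1.85-fold (adjusted p = 0.0134) and Spint1 1.30-fold (adjusted p = 0.0484), while Bsg, an inducer of metalloproteinases kept in this list as a regulator, was 1.42-fold lower and Pebp1 1.46-fold lower.

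Of 43 matrix components and enzymes on which the proteases act, 7 were higher and 2 lower in late CR than in fed 0 h lungs (20.9%, against 18.1% of all probe sets), and 4 higher and 3 lower against fed 2, 4 and 12 h (16.3%, against 6.34%). Lox, which crosslinks collagen and elastin, was 3.83-fold higher (adjusted p = 7.36e-07), and Eln, elastin, 1.43-fold higher (adjusted p = 0.0164). Mfap2, a microfibril protein, was 1.65-fold higher (adjusted p = 0.000208), and Sparcl1 1.54-fold higher (adjusted p = 0.000524). Col3a1, a fibrillar collagen, was 1.91-fold lower (adjusted p = 2.21e-06) and Mfap5, another microfibril protein, 1.89-fold lower (adjusted p = 0.000579). In early CR 0 genes of these 3 lists were called. The medians of the 3 lists in late CR were 0.16 for proteases, -0.21 for inhibitors and 0.21 for matrix genes, against 0 over all probe sets. The summed signal of the matrix genes averaged 120800 in late CR, 84170 in fed 0 h number 1 and 120000 in number 2. For the other proteases these means were 57610, 40700 and 56790, and for the other inhibitors 64780, 98710 and 62660. The sums in late CR thus lay near those of number 2 and away from those of number 1. Single genes of these lists were not set against each number.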

How the data were processed

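Whole lung RNA was hybridised to 24 MG-U74Av2 arrays. The deposited values are linear intensities, 1 per probe set, with a trimmed mean (2% trimmed) of 800.4 to 800.5 on each array. Their software is not stated in the sources used. The 66 control probe sets were left out, arrays were brought to 1 common median (that of the 24 medians), values below 80.37 (the percentile 25 of all) were set to that floor, and log2 was taken. Probe sets at or above their array's median on at least 2 arrays were tested (7440 of 12422). Group means of all 24 arrays were fitted with limma 3.58.1 in R 4.3.3 (empirical Bayes with a trend, 13 residual degrees of freedom). P-values were adjusted over all 7440 by Benjamini-Hochberg, and under 0.05 counted as called. The number of arrays limits the precision. Per-array values are scaled and not floored. Symbols came from the platform annotation, and all 90 member probe sets matched RefSeq.

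Letters a and b do not pair samples: over 66 pairs of groups, deviations of same-letter arrays correlated by -0.19 to 0.123. Values were given for Timp3, Mmp12, Adam19, up to 10 called members in each direction of each mean comparison, the Timp, Mmp and Adam families, the 4 smallest p of each F test, and called pathway genes. Members and lists were chosen with earlier results of these data known. The comparisons by number, ceiling and hour were chosen after the values were seen. The script was tested on simulated data. Alternatives covered scaling, floor, filter, weights, blocks and left-out arrays. A further array of another platform entered no comparison.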

Additional observations from a re-analysis of the deposited data

Results flagged for a closer look

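On 3 member probe sets 1 of the 4 fed 0 h arrays stood apart from the other 3, by a gap that was a large share of the whole range (above 0.83). By chance about 5% of groups do so, and 48 members were examined. Adam28 was 149.2 on array 1a and below the floor on the others, so the gap over the range was 1.0. Serpina6 was 24.51 on array 1b, against 260.4, 286.5 and 297.2 on the others (0.899). One probe set of Serpinf1, 162429_r_at, was 398.1 on array 2b, against 319.6 to 330.7 on the others (0.845). None of these 3 probe sets was called in late CR against all fed 0 h arrays or against fed 2, 4 and 12 h, or in early CR. Against number 1 alone, which holds the low array 1b, Serpina6 was 2.03-fold higher in late CR (adjusted p = 0.0366).

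For 2 members the late difference from fed 0 h differed from the early difference from fed lungs of the same hour. It was 0.76 higher on the log2 scale for Timp3 (adjusted p = 0.035) and -0.55 for Serpinb9 (adjusted p = 0.0451), by limma.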

How the results depend on the processing

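The share of all probe sets called also shifted between settings. Where none is given, a count describes the setting and not the members in particular. Late CR against fed 0 h called 12 of 48 members. The count was 0 with a and b averaged and hours pooled, 1 with array weights and 2 with only the groups compared. It was 21 against fed 0 h number 1 (49.4% of all probe sets) and 20 within the high ceiling (46%). Leaving out 1 array gave 5 to 12, lowest without fed 0 h 1a or 1b. Averaging with pooled hours also gave 0 for late CR against fed 2, 4 and 12 h and for those fed hours against fed 0 h. Late CR against fed 2, 4 and 12 h called 4, and 8 with array weights, 16 with the ceiling as a block, 1 against fed 12 h alone, and 2 to 5 without 1 array (2 without CR 24 h 1b, CR 96 h 1b, fed 12 h 1b or fed 4 h 1a). Fed 2, 4 and 12 h against fed 0 h called 1. It gave 3 with quantile normalization, 4 with values as deposited, 2 with no filter or a filter on the mean, 0 with array weights or only the groups compared, 7 with the ceiling as a block, 12 against number 1, 9 against number 2, and 1 to 5 without 1 array, highest without fed 0 h 2b. Early CR called 0, and 1 with the ceiling as a block. The late minus early difference called 2, and 1 with no filter, 0 without the intensity trend or with array weights, 6 with the ceiling as a block, 15 with number 1, and 0 to 5 without 1 array, highest without fed 0 h 2a. The late CR times called 0, and 1 with no filter or a filter on the mean, 5 with array weights, 13 with the ceiling as a block, and 0 to 3 without 1 array. The early hours called 0 under each. With the letter as a replicate block, the counts were 11 (late against fed 0 h), 3 (against fed 2, 4 and 12 h), 0 (early), 1 (fed), 2 (late minus early), 0 and 0, within 1.5 times of the counts above. The 17 called results of named members kept their direction under the settings tried. Beside them, Mmp14 and Ctss turned between the numbers (log2 0.51 and -0.53, -0.77 and 0.51, number 1 first). The 5 comparisons by ceiling or hour were chosen after seeing the data. The causes of these changes were not tested. Signal at the floor on some arrays limits Mmp9, Adam8, Adam28, Serpina10 and Serpina1b.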

Other observations

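The array of another platform, of lung and in no group here, was read for 7 members. On its own scale Timp3 reached 1190 on the brightest of 4 probe sets, above 98.2% of its probe sets. Ctss was 1789 (above 99%), Serpinb9 480.9 (92.9%), Adam19 380.5 (89.8%), Adamts1 292.9 (84.8%), Mmp2 240.4 (79.8%) and Mmp12 21.41 (18.6%). These values have no replicate and were not set against the 24 arrays.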
